A study of Mus musculus with 8 samples.

Results

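The genes described here are 10 members of the JAK-STAT pathway: the Janus kinase genes Jak1, Jak2 and Tyk2, the transcription factor genes Stat3, Stat5a and Stat5b, and the feedback inhibitor genes Socs1, Socs2, Socs3 and Cish. They were taken by gene symbol from a list whose rule uses no measured value, though the list was drawn up with earlier results of these data known, and all 10 were found among the 24112 genes of the deposited tables. RNA was measured in LSK cells (lineage-negative, Sca1+ and Kit+), the bone marrow fraction that holds blood stem and early progenitor cells, from C57BL/6 mice after transplantation. The 4 KO libraries came from mice reconstituted with Traf6-/-;Vav-Cre+ marrow and the 4 WT libraries from mice reconstituted with Vav-Cre+ marrow, so both genotypes carried the Cre recombinase and both had been transplanted. The Vav promoter drives Cre in blood cells; the sources used here do not give the animals' age, any pooling, or the share of LSK cells left from the recipients. The study asked whether TRAF6, an adaptor and ubiquitin ligase downstream of Toll-like and interleukin-1 receptors, keeps NF-κB active at the basal level that blood stem cells need.

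Cytokine receptors without a kinase domain of their own bind Janus kinases. After the cytokine binds, the kinases phosphorylate STAT proteins, which enter the nucleus and switch on target genes. Socs1, Socs2, Socs3 and Cish are themselves STAT targets, and their proteins damp the same receptors, so their transcripts are often read as a trace of recent STAT activity. In blood stem cells, JAK2 and STAT5 carry the signal of the thrombopoietin receptor, STAT3 that of receptors sharing gp130 and of the G-CSF receptor, and JAK1 and TYK2 serve interferon and gp130 receptors.

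Each library is a list of levels in RPKM (reads scaled to gene length and library size), a unit inferred from the values. Traf6 itself was at 0.613, 0.818 and 0.00721 RPKM in KO1, KO2 and KO4, was listed at 0 in KO3, and was at 14.9, 3.52, 9.40 and 7.10 RPKM in WT1 to WT4. Its groups did not overlap, and the log2 difference was -2.75 ± 0.53 (limma adjusted p = 0.341). Depth, as megareads in genes estimated from the values, was 22.6 to 30.7 in KO libraries and 19.2 to 24.9 in WT libraries. Lane 5 held KO3 and KO4, and lane 4 held the remaining 6 libraries, including every WT library. KO3 and KO4 listed 9055 and 10674 genes above 0, KO1 and KO2 listed 13571 and 13689, and WT libraries listed 11169 to 12970. Of 3943 genes averaging over 20 RPKM, KO3 listed 175 at 0, KO4 61, WT2 47 and the other 5 libraries 6 to 20, so a value of 0 is written below as listed at 0 and is no evidence of a missing transcript. Of the markers of the sorting gate, Kit was at 50.6 to 113 RPKM in KO and 73.8 to 83.1 RPKM in WT, and Ly6a, which encodes Sca1, was at 6.53 to 10.9 RPKM in KO and 7.31 to 11.8 RPKM in WT. Of the B-cell markers, Ms4a1, Cd79a and Pax5 were listed at 0 in all 8 libraries, while the whole list summed to 6.65 to 18.01 RPKM in KO and 5.91 to 24.9 RPKM in WT, with Cd79b its most abundant gene. T-cell markers, with Cd3g listed at 0 throughout, summed to 0.0666 to 1.99 RPKM in KO and 0.0781 to 9.66 RPKM in WT, and mature neutrophil markers to 0.167 to 35.9 RPKM in KO and 0 to 10.3 RPKM in WT. Erythroid markers summed to 52.5 to 198.5 RPKM in KO and 122.7 to 242.3 RPKM in WT, megakaryocyte markers to 49.1 to 131.3 RPKM in KO and 52.6 to 96.3 RPKM in WT, and endothelial and stromal markers to 3.15 to 8.87 RPKM in KO and 3.84 to 8.93 RPKM in WT. Summed markers of granulocyte-monocyte progenitors, with Mpo the most abundant, reached 2076 to 7986 RPKM in KO and 612 to 1831 RPKM in WT. Summed stem and gate markers, with Cd34 the most abundant, reached 431 to 532 RPKM in KO and 599 to 661 RPKM in WT. The progenitor and the stem and gate sums did not overlap between genotypes, and their part in the differences below was not tested. By single gene, 3 of 8 progenitor markers and 2 of 9 stem and gate markers did not overlap, beside 5.92% of all genes tested. In sorted bulk RNA, fewer cells of a type and less RNA per cell cannot be told apart. Whether libraries of the same genotype were made from different mice is not stated, so the p-values below reflect library-to-library spread, which may be technical.

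All 10 genes passed the filter of at least 1 RPKM in at least 4 libraries and were among the 11276 genes tested. In limma on log2(RPKM + 1), 0 of the 10 passed an adjusted p of 0.05, with adjusted p from 0.645 to 0.977, and 0% of all 11276 genes did. At an unadjusted p under 0.05 there was 1 member, Socs2, which was lower, where 7.51% of all genes tested were under that level, 4.74% lower and 2.77% higher. Of the 10 log2 differences (KO minus WT), 7 were negative, and 61.0% of all genes tested were negative. Their median was -0.37, against -0.14 over all genes tested, a shift of all genes that quantile normalization moved to 0.00. In 1 of 10 members, Jak1, the groups did not overlap, every KO value being under the lowest WT value. Groups did not overlap in 5.92% of all genes tested, and KO was the lower group in 3.88%. The 95% confidence interval of each difference is given below.

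**Figure D1:**
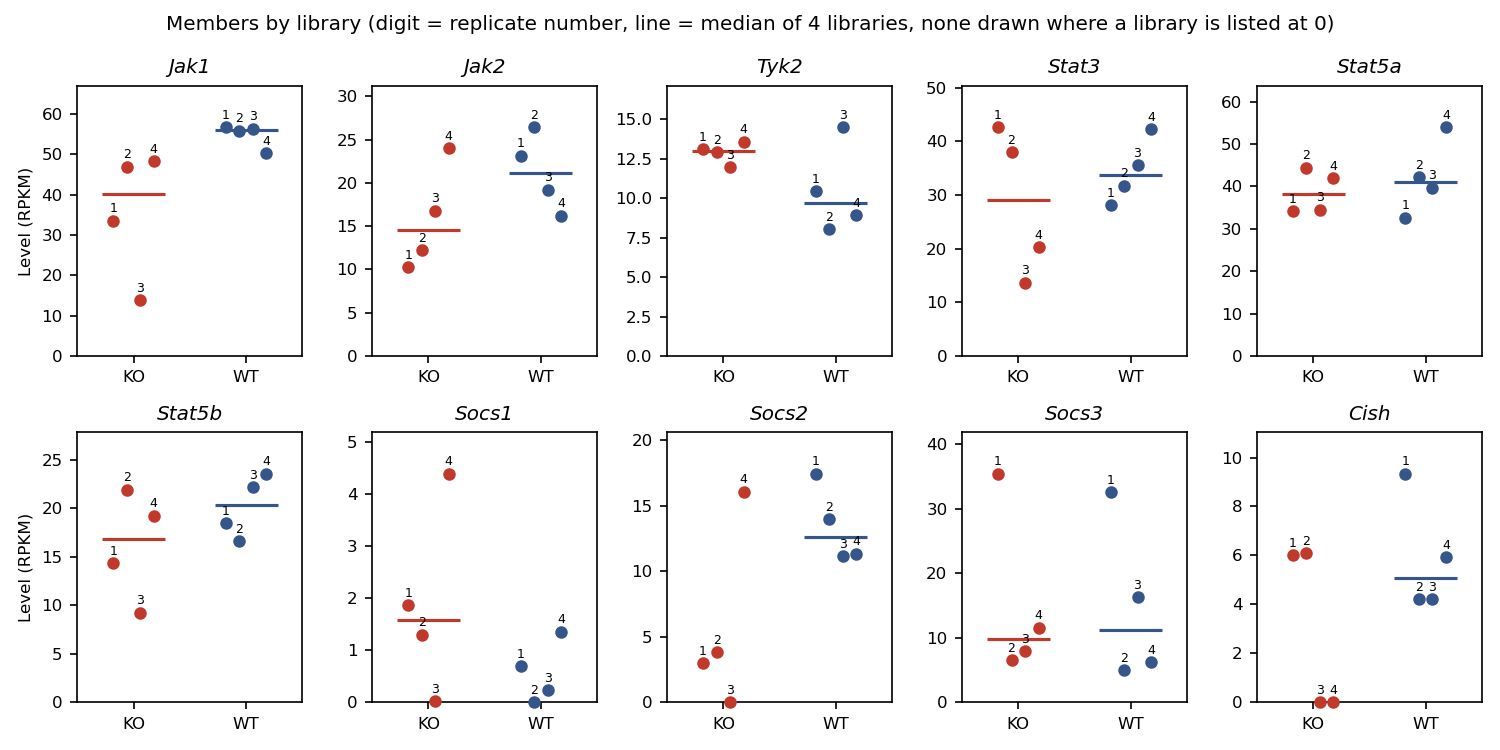
Level in RPKM (vertical axes, from 0) of each of the 10 genes in the 4 KO (red, left) and 4 WT (blue, right) libraries, with the replicate number at each point and a line at the group's median where no library is listed at 0. Jak1 is the gene whose groups do not overlap, at 13.8 to 48.3 RPKM in KO and 50.4 to 56.7 RPKM in WT. Socs2 is low in KO1 and KO2, listed at 0 in KO3 and within the WT range in KO4.

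By level per gene length, Jak1, Stat5a and Stat3 came first in both genotypes and Cish and Socs1 last. In KO the medians descended from Jak1 (40.2 RPKM) through Stat5a (38.2 RPKM), Stat3 (29.1 RPKM), Stat5b (16.8 RPKM), Jak2 (14.5 RPKM), Tyk2 (13.0 RPKM), Socs3 (9.77 RPKM), Socs2 (3.41 RPKM) and Cish to Socs1 (1.59 RPKM), and every pair of neighbours in that order overlapped. In WT the order of medians was Jak1 (56.1 RPKM), Stat5a (40.9 RPKM), Stat3 (33.6 RPKM), Jak2 (21.2 RPKM), Stat5b (20.3 RPKM), Socs2 (12.7 RPKM), Socs3 (11.2 RPKM), Tyk2 (9.69 RPKM), Cish (5.09 RPKM) and Socs1 (0.470 RPKM), and neighbours overlapped except Stat3 with Jak2 and Cish with Socs1. By median, Socs2 stood below Tyk2 and Socs3 in KO and above both in WT. Its KO median counts the value listed at 0 in KO3. Single libraries departed from this order: Socs2 lay above both in KO4, below both in WT3 and below Socs3 in WT1.

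Among the kinases, Jak1, the most abundant member and a partner of interferon and gp130 receptors, lay below the WT range in every KO library. It was at 33.5, 47.0, 13.8 and 48.3 RPKM in KO1 to KO4 and at 56.7, 55.8, 56.3 and 50.4 RPKM in WT1 to WT4. KO4 lay just under WT4 and KO3 far below the rest. The means were 35.7 ± 16.0 RPKM in KO and 54.8 ± 2.99 RPKM in WT (SD, n = 4 each), and the log2 difference was -0.75 ± 0.36 (SE; 95% interval -1.54 to 0.04; limma adjusted p = 0.665). A 2-sided exact permutation test gave p = 0.0286 for Jak1, the smallest that 70 assignments of the libraries can give, and 0.482 once adjusted over all genes. Any gene whose groups do not overlap gets this unadjusted p, so it adds nothing to the lack of overlap. Without KO3 the difference of Jak1 was -0.36 ± 0.19. The WT libraries lay close to each other: the SD of log2 levels of Jak1 within WT was at percentile 1.56 of all genes tested, and within KO at percentile 60.7.

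Jak2, the kinase of the thrombopoietin and erythropoietin receptors, was low in the pair of lane 4 KO libraries. It was at 10.3, 12.2, 16.8 and 24.0 RPKM in KO1 to KO4 and at 23.1, 26.4, 19.2 and 16.2 RPKM in WT1 to WT4. KO1 and KO2 lay below every WT library, KO3 and KO4 within the WT range. The means were 15.8 ± 6.12 RPKM in KO and 21.3 ± 4.48 RPKM in WT (SD, n = 4 each), with a log2 difference of -0.45 ± 0.31 (95% interval -1.13 to 0.24, limma adjusted p = 0.726). Within lane 4 the difference of Jak2 was -0.85 ± 0.27 (adjusted p = 0.331), and without KO1 it was -0.28 ± 0.31.

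Tyk2, which pairs with JAK1 at interferon receptors, was the kinase with a positive difference. It was at 13.1, 12.9, 12.0 and 13.6 RPKM in KO1 to KO4 and at 10.5, 8.06, 14.5 and 8.92 RPKM in WT1 to WT4. All KO libraries exceeded 3 of the WT libraries and lay under WT3. The KO values were within 1.13 times of each other, a spread of log2 levels at percentile 0.426 of all genes tested, beside percentile 39.8 within WT. The log2 difference was 0.30 ± 0.29 (95% interval -0.33 to 0.94, limma adjusted p = 0.782). It was 0.20 without WT2 and 0.46 without WT3.

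Among the transcription factors, Stat3, which relays gp130 and G-CSF signals, divided the KO libraries by sequencing lane. It was at 42.6, 37.9, 13.6 and 20.3 RPKM in KO1 to KO4 and at 28.05, 31.7, 35.5 and 42.3 RPKM in WT1 to WT4. The lane 5 libraries KO3 and KO4 lay below every WT library, while KO2 lay within the WT range and KO1 just above it. The log2 difference was -0.38 ± 0.35 with all libraries (95% interval -1.16 to 0.40, limma adjusted p = 0.779) and 0.24 ± 0.22 within lane 4 (adjusted p = 0.735), so its sign changed. With all lanes it was -0.08 without KO3 and -0.61 without KO1. With no WT library in lane 5, lane and genotype cannot be told apart in KO3 and KO4.

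Stat5a and Stat5b are neighbouring genes of nearly the same sequence, whose proteins carry cytokine signals to survival genes and to Socs2 and Cish. The sources used here do not say how reads common to both were counted, so their split is uncertain. Stat5a was at 34.1, 44.4, 34.5 and 41.9 RPKM in KO1 to KO4 and at 32.6, 42.1, 39.7 and 53.9 RPKM in WT1 to WT4. Every KO value of Stat5a lay within the WT range, and the log2 difference was -0.10 ± 0.21, with a 95% interval of -0.58 to 0.37 (limma adjusted p = 0.907), the narrowest of the 10. Leaving out a library moved it to between -0.22 (without WT1) and 0.02 (without WT4). Stat5b was at 14.3, 21.9, 9.25 and 19.2 RPKM in KO1 to KO4 and at 18.5, 16.6, 22.1 and 23.5 RPKM in WT1 to WT4. KO1 and KO3 lay below every WT library, and the log2 difference of Stat5b was -0.35 ± 0.30 (95% interval -1.02 to 0.31, adjusted p = 0.761 in limma). Without KO3 it was -0.13 ± 0.24. Stat5a exceeded Stat5b in all 8 libraries, by 2.38, 2.03, 3.73 and 2.18 times in KO1 to KO4 and by 1.77, 2.54, 1.79 and 2.29 times in WT1 to WT4, and KO3 alone lay outside the WT range of this ratio.

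The feedback genes are induced through STAT binding sites, whose core letters are TTCNNNGAA, a motif that reads alike on both strands. It was searched in RefSeq promoter windows of the build GRCm38.p6 (250 bases before the gene's start and 50 after it), which cover 9 of the 10 genes; Socs2 had no entry. Of 11 windows of these genes 2 held the motif, those of Cish and Socs3, and 8.30% of all 32851 windows did. The Cish window held it 2 times, and 0.457% of all windows held it 2 or more times. The pair is shown because these are the feedback genes whose windows hold the motif; the capitals mark the motif, and the rest is lower case.
Cish, chr9:107296409-107296708, + strand: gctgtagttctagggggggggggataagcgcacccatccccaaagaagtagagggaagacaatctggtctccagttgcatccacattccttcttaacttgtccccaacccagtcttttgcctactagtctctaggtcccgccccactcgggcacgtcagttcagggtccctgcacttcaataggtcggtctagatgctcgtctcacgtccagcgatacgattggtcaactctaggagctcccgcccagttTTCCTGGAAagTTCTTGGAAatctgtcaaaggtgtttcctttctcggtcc
Socs3, chr11:117969317-117969616, - strand: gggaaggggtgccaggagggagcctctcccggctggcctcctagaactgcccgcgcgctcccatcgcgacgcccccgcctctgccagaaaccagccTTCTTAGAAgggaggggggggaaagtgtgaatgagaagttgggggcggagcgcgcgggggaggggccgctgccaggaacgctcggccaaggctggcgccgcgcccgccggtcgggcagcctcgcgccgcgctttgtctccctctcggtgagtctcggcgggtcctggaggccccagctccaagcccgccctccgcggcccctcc
In Cish the copies start at bases 251 and 262 of the window, the first of them at the gene's start, and in Socs3 the copy starts at base 97. A match is letters only and does not show binding in these cells. The deposited values were made on mm9, and no value was placed on these coordinates.

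Socs2, a STAT5 target whose protein limits growth hormone and other cytokine receptors, had the lowest limma p and the most negative difference of the 10. It was at 2.99, 3.83 and 16.1 RPKM in KO1, KO2 and KO4, was listed at 0 in KO3, and was at 17.5, 14.0, 11.2 and 11.3 RPKM in WT1 to WT4. KO1, KO2 and KO3 lay below every WT library, and KO4 lay inside the WT range. The log2 difference was -1.74 ± 0.74 (95% interval -3.39 to -0.10), with an unadjusted p of 0.0400 and an adjusted p = 0.645 in limma, and the 2-sided exact permutation test gave p = 0.114 for Socs2. Within lane 4 the difference of Socs2 was -1.70 ± 0.31 (adjusted p = 0.228). With the value of KO3 left out it was -1.05 ± 0.49, and without KO4 it was -2.41. Socs2 stood at 0.0618, 0.0577, 0 and 0.263 of the summed level of Stat5a and Stat5b in KO1 to KO4 and at 0.342, 0.238, 0.180 and 0.146 of it in WT1 to WT4. Relative to STAT5 transcripts, too, KO1 and KO2 were below the WT range and KO4 was within it. The ratio of 0 in KO3 follows from Socs2 being listed at 0 there. Progenitor markers summed to 7986, 3700, 2864 and 2076 RPKM in KO1 to KO4, and stem and gate markers to 431, 532, 454 and 530.5 RPKM. Both sums were apart between genotypes, as given above, and are listed here as a description only. The part of these cells in the level of Socs2 was not tested.

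Cish, the founding member of the family and a STAT5 target, was near the WT level in the lane 4 KO libraries and listed at 0 in the lane 5 ones. It was at 6.00 and 6.08 RPKM in KO1 and KO2, was listed at 0 in both KO3 and KO4, and was at 9.34, 4.23, 4.20 and 5.94 RPKM in WT1 to WT4. KO1 and KO2 lay within the WT range. The log2 difference was -1.33 ± 0.77 (95% interval -3.04 to 0.39, limma adjusted p = 0.696), and 0.08 ± 0.39 within lane 4 (adjusted p = 0.961), so the negative difference came from the libraries listed at 0. It was -0.86 without either KO3 or KO4 alone. KO3 and KO4 also listed the fewest genes of all and were the lane 5 libraries. Lane, gene listing and genotype cannot be told apart in them, and the cause of the values of 0 was not tested.

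Socs3, induced by STAT3 and a brake on gp130 and G-CSF receptors, varied more within each genotype than between them. It was at 35.5, 6.59, 7.95 and 11.6 RPKM in KO1 to KO4 and at 32.6, 4.97, 16.3 and 6.20 RPKM in WT1 to WT4. A single library of each genotype, KO1 and WT1, stood above 30 RPKM. The highest value was 5.38 times the lowest in KO and 6.55 times the lowest in WT, and the SD of its log2 levels within WT was at percentile 92.2 of all genes tested. The means were 15.4 ± 13.5 RPKM in KO and 15.0 ± 12.8 RPKM in WT (SD, n = 4 each), and the log2 difference was 0.08 ± 0.65 (95% interval -1.36 to 1.52, limma adjusted p = 0.977). Leaving out a library moved it to between -0.41 (without KO1) and 0.55 (without WT1). Socs3 stood at 0.832, 0.174, 0.584 and 0.572 of the level of Stat3 in KO1 to KO4 and at 1.16, 0.157, 0.459 and 0.147 of it in WT1 to WT4, so relative to Stat3, too, each genotype spread widely.

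Socs1, a strong inhibitor of interferon signalling, was the lowest of the 10. It was at 1.87, 1.30, 0.0181 and 4.39 RPKM in KO1 to KO4, was listed at 0 in WT2, and was at 0.698, 0.242 and 1.36 RPKM in WT1, WT3 and WT4. KO1 and KO4 lay above every WT library, KO2 just under WT4, and KO3 near 0. It passed the filter through 3 KO libraries and 1 WT library, so without its KO values it would not have been tested. The log2 difference was 0.72 ± 0.58 (95% interval -0.57 to 1.999, limma adjusted p = 0.750), on a scale that understates changes of genes this low. It was 1.14 ± 0.52 without KO3 and 0.34 ± 0.54 without KO4. With a pseudocount of 0.1 and all libraries, the difference of Socs1 was 1.30 ± 1.45 (limma adjusted p = 0.785), an error larger than the difference.

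**Figure D2:**
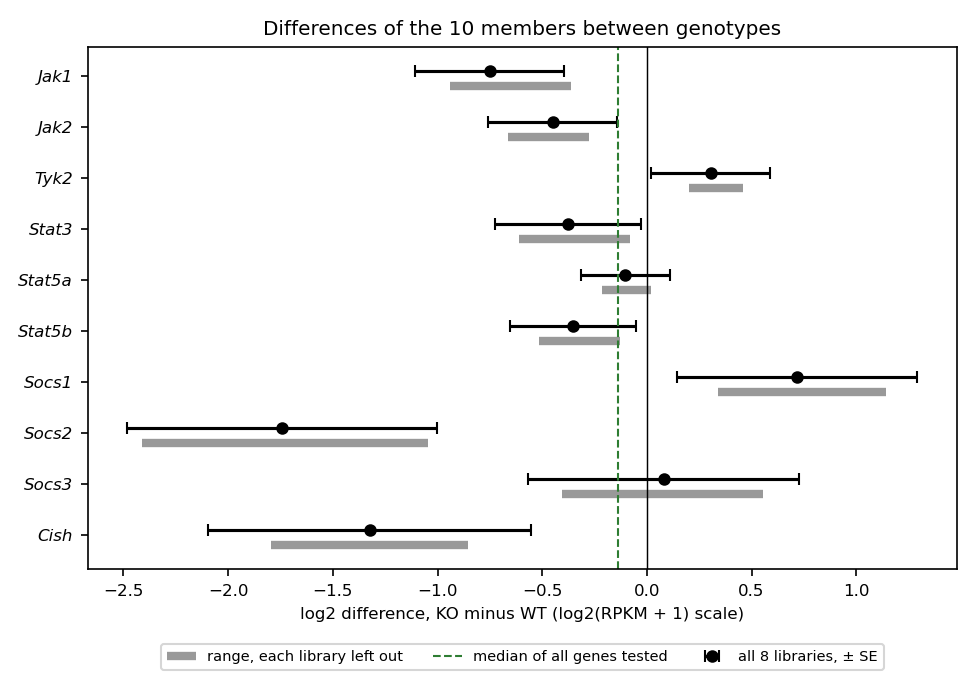
log2 difference, KO minus WT, of each gene on the log2(RPKM + 1) scale (points, bars ± SE, all 8 libraries), with the range over the fits that each left out a library (grey) and the median of all genes tested at -0.14 (green, dashed). Socs2, Jak1, Jak2, Cish, Stat3 and Stat5b stay below 0 over the whole grey range and Tyk2 and Socs1 above it, while those of Socs3 and Stat5a cross 0.

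Summing the member kinases Jak1, Jak2 and Tyk2 shows how far their sum rests on Jak1. Jak3, which is not a member, is left out. It was at 48.0, 44.4, 24.9 and 34.5 RPKM in KO1 to KO4, above Jak1 in KO1 and KO3, and at 42.3 to 45.9 RPKM in WT. The summed JAK level was 56.9, 72.1, 42.6 and 86.0 RPKM in KO1 to KO4 and 90.4, 90.3, 90.1 and 75.5 RPKM in WT1 to WT4. KO4 reached the WT range and the other KO libraries did not. Jak1 held 32.4% to 65.1% of the sum in KO and 61.8% to 66.7% in WT, and Tyk2 15.8% to 28.1% in KO and 8.92% to 16.1% in WT. The lowest share of Jak1 was that of KO3, where Jak2 exceeded it: Jak1 was 3.27, 3.84, 0.820 and 2.01 times Jak2 in KO1 to KO4 and 2.45, 2.11, 2.93 and 3.11 times Jak2 in WT1 to WT4.

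The feedback genes shared their sum unevenly. Together Socs1, Socs2, Socs3 and Cish came to 46.3, 17.8, 7.97 and 32.1 RPKM in KO1 to KO4 and to 60.1, 23.2, 31.9 and 24.8 RPKM in WT1 to WT4. Socs3 held 36.1% to 99.8% of it in KO and 21.5% to 54.2% in WT, and Socs2 0% to 50.2% in KO and 29.1% to 60.3% in WT. The sum leaves out Socs4, Socs5, Socs6 and Socs7, which were at 0.0206, 13.1, 8.45 and 7.53 RPKM in KO3 and were named after their values were seen. Among the members alone, nearly the whole sum was Socs3 in KO3, where Socs2 and Cish were listed at 0. That share is no evidence that the transcripts of Socs2 and Cish were missing.

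**Figure D3:**
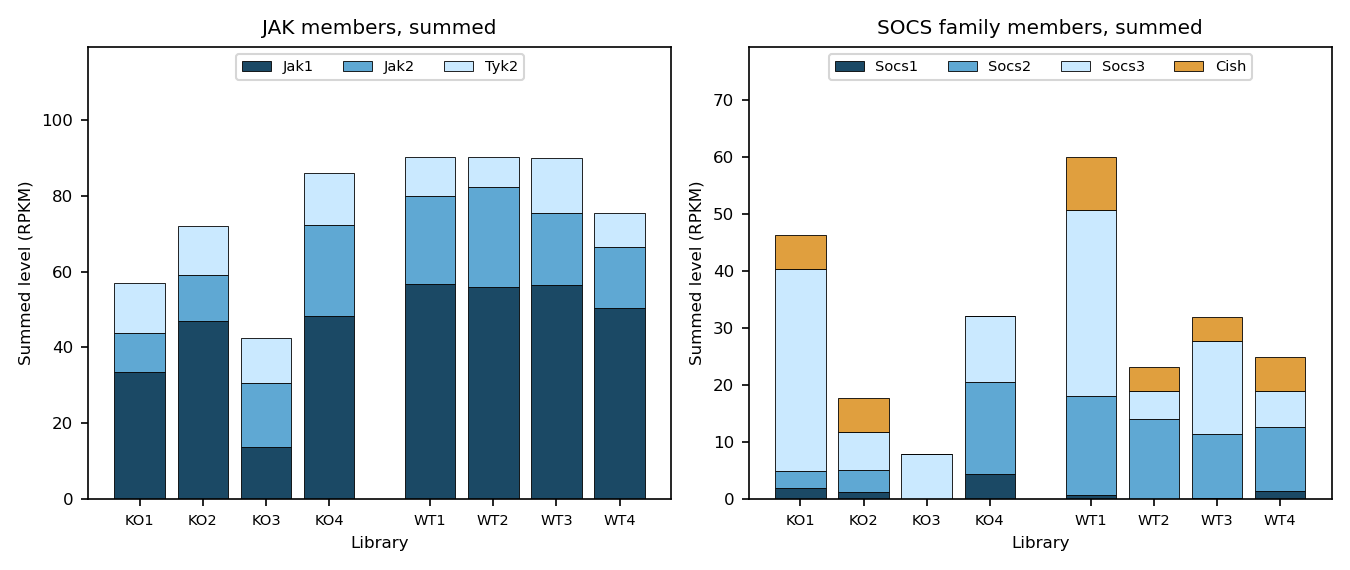
Summed level in RPKM (vertical axes, from 0) in each library, KO1 to KO4 and then WT1 to WT4. The left panel sums Jak1, Jak2 and Tyk2, and the right panel Socs1, Socs2, Socs3 and Cish, with the part of each gene in colour. Jak3 and Socs4 to Socs7 are not included. The JAK sum is lowest in KO3, at 42.6 RPKM, and the SOCS-family sum has Socs3 as its largest part in KO1, KO2, KO3, WT1 and WT3 and Socs2 in the others.

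The set of members outside the WT range differed between the 4 KO libraries, with Jak1 common to all of them. Against the range of the 4 WT libraries, KO1 had 4 of 10 members below it (Jak1, Jak2, Stat5b and Socs2) and 3 above (Stat3, Socs1 and Socs3), where 27.1% of all genes tested were below and 18.8% above. KO2 had 3 below (Jak1, Jak2 and Socs2) and 0 above, where 17.3% of all genes were below and 17.4% above. KO3 had 5 below (Jak1, Stat3, Stat5b, Socs2 and Cish) and 0 above, where 40.1% of all genes were below and 27.2% above. KO4 had 3 below (Jak1, Stat3 and Cish) and 1 above (Socs1), where 28.9% of all genes were below and 25.8% above. Jak1 was the only member below the WT range in all 4 KO libraries, and among 10 members a single gene changes such a share by 10%.

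**Figure D4:**
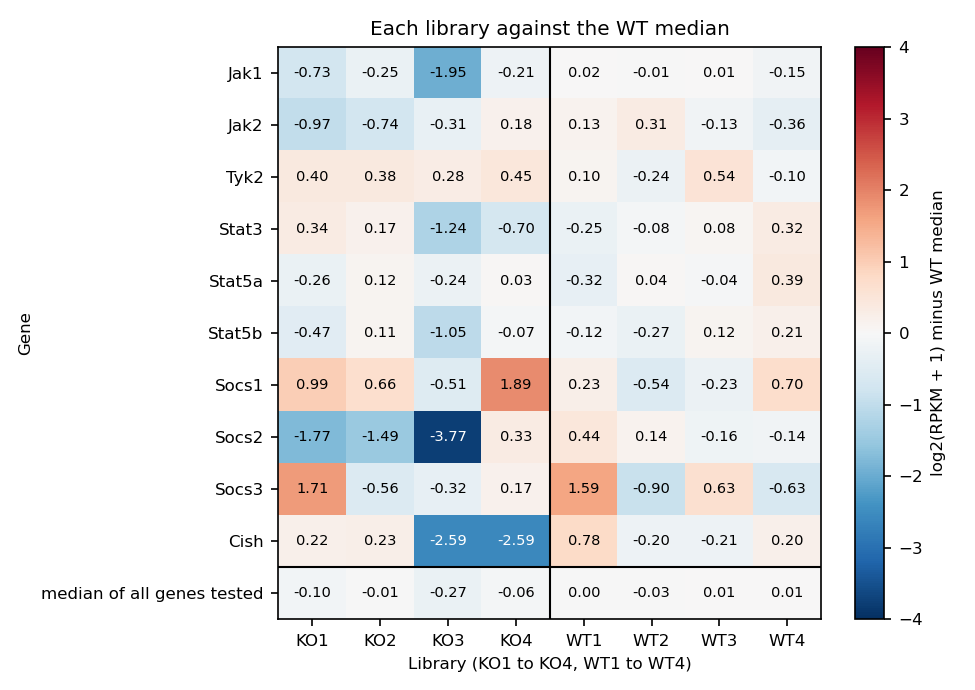
log2(RPKM + 1) of each gene minus the median of the 4 WT libraries (colour and printed value), by library (KO1 to KO4, then WT1 to WT4), with the median of all genes tested in the bottom row. Jak1 is negative in every KO library (-0.73, -0.25, -1.95 and -0.21), Socs2 is at -1.77, -1.49 and -3.77 in KO1 to KO3 and at 0.33 in KO4, and Cish is at -2.59 in both KO3 and KO4.

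Over the 8 libraries some members had similar patterns. As a description without a test, and with genotype and the KO3 library shared by every pair, Pearson's r of log2 levels was 0.93 between Jak1 and Socs2, 0.89 between Jak1 and Stat5b and 0.85 between Stat3 and Cish, and it was lowest, at -0.71, between Stat5a and Socs3. Socs2 and Cish, both STAT5 targets, had r = 0.39. Of 8668 other genes averaging at least 5 RPKM, those most like Socs2 were Arih1, Tial1 and Gm14288 (r = 0.99, 0.99 and 0.98), all of them lowest in KO3. Those most like Socs3 were Atf4, Hnrnpl and Lcp1 (r = 0.95, 0.95 and 0.90). Those most like Cish, of 8669 genes, were Mir1892, Setd6 and Lhpp (r = 0.99 for each), with KO3 and KO4 at or near 0 in all 3. Each was picked as the highest among all genes compared, over 8 points.

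Around the 10 genes, 4 lists of pathway genes were described in the same fit, and 0 of their tested genes passed an adjusted p of 0.05 in either direction, as 0% of all genes. The rest of the JAK, STAT and SOCS genes were all tested (9 of 9), and 9 of 9 log2 differences were negative, where 61.0% of all genes tested were negative. The list had a median of -0.26 beside -0.14 for all genes, and 5 of its 9 genes lay below the latter. Its most abundant genes were Jak3, the kinase of the common gamma chain, at 48.0, 44.4, 24.9 and 34.5 RPKM in KO1 to KO4 and 42.3 to 45.9 RPKM in WT (-0.26 ± 0.23), Stat6 at 26.1 ± 2.89 RPKM in KO and 28.3 ± 10.6 RPKM in WT (-0.06 ± 0.26), and Stat4 at 15.3 ± 9.48 RPKM in KO and 27.8 ± 8.46 RPKM in WT (-0.995 ± 0.487). The last of the 9, Socs5, lay at -0.0018 ± 0.433, which is 0 within its error; it was named after its values were seen.

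Of 25 genes for receptors that bind Janus kinases, 21 were tested, 13 with positive and 8 with negative differences (median 0.13). Ifngr1, a chain of the interferon gamma receptor, was at 161.7, 89.5, 136.9 and 90.7 RPKM in KO1 to KO4 and at 82.8 to 101 RPKM in WT (0.33 ± 0.22). Il2rg, the common gamma chain, was at 64.0 ± 19.2 RPKM in KO and 77.2 ± 3.55 RPKM in WT, and Csf3r, the G-CSF receptor, at 45.9 ± 7.05 RPKM in KO and 47.7 ± 11.1 RPKM in WT. Ifngr2, the partner of Ifngr1, was the 1 receptor gene of the 21 tested whose groups did not overlap. It was at 10.2 to 13.9 RPKM in KO and 4.19 to 8.67 RPKM in WT (0.71 ± 0.34, limma adjusted p = 0.665). Ifngr2 is named because of that, after its values were seen. Among all genes tested, 2.05% had every KO value above every WT value.

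Of 12 inhibitors outside the SOCS family, all tested, 7 had negative and 5 positive differences (median -0.13). The phosphatase gene Ptpn6 (SHP-1), the most abundant, was at 89.5, 85.3, 93.2 and 93.6 RPKM in KO1 to KO4 and at 82.9, 58.0, 83.9 and 75.8 RPKM in WT1 to WT4, without overlap (0.28 ± 0.17). Ptpn1 (PTP1B), which dephosphorylates JAK2 and TYK2, did not overlap either, at 26.4, 21.4, 21.7 and 20.9 RPKM in KO1 to KO4 and 12.2, 14.5, 15.3 and 18.1 RPKM in WT1 to WT4 (0.57 ± 0.23, limma adjusted p = 0.634); it was named after its values were seen. All KO values lay above all WT values in 2.05% of all genes tested. Ptprc, which encodes CD45, was at 22.3 ± 6.71 RPKM in KO and 30.2 ± 9.53 RPKM in WT, and Pias4, a SUMO ligase, at 21.1 ± 4.81 RPKM in KO and 24.7 ± 11.5 RPKM in WT.

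Targets of STAT3 and STAT5 went both ways: of 21 tested genes 15 had negative and 6 positive differences, with a median of -0.15, close to the -0.14 of all genes. Fos was at 295.8 ± 147 RPKM in KO and 429 ± 26.0 RPKM in WT (-0.66 ± 0.30), Junb at 137 ± 14.7 RPKM in KO and 245 ± 82.5 RPKM in WT (-0.78 ± 0.22, limma adjusted p = 0.495), and Myc at 142 ± 28.3 RPKM in KO and 99.2 ± 23.0 RPKM in WT (0.52 ± 0.22, adjusted p = 0.645). Junb and the cyclin gene Ccnd1 (14.7 ± 2.18 RPKM in KO, 24.5 ± 4.70 RPKM in WT; SD, n = 4 each) were the targets whose KO values all lay below WT; Ccnd1 was named after its values were seen. Every KO value lay below every WT value in 3.88% of all genes tested. Many of the listed targets also respond to other pathways.

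**Figure D5:**
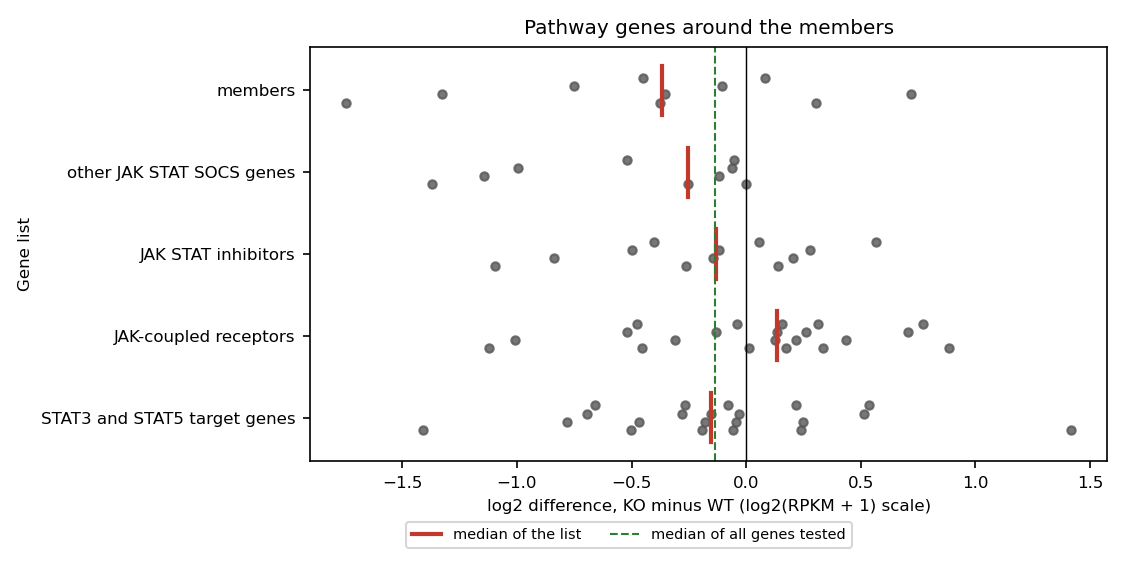
log2 difference, KO minus WT, on the log2(RPKM + 1) scale of each tested gene (points) in 5 gene lists, with the list's median (red) and the median of all genes tested (green, dashed, -0.14). The medians run from -0.37 for the 10 members to 0.13 for the receptors, and every list spreads to both sides of the median of all genes.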

How the data were processed

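Poly(A) RNA of LSK cells was sequenced in 8 libraries, 4 KO and 4 WT, grouped by title and genotype. The submitters' processing notes name TopHat, edgeR and the build mm9, without role or version; how reads were counted, and on which gene models, is not given here. The values deposited by the authors are RPKM, a unit inferred from the values. Of 24112 Entrez IDs, 24029 (99.7%) matched a symbol in a GRCm38.p6 gene table used for names. Depth was estimated from steps between low values (up to 0.2 RPKM); between 37.0% and 57.9% of them were whole reads within 0.03 reads, so reads were not recovered and no count test was run. Counting error is not included in the intervals.

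Values were tested as log2(RPKM + 1) with limma 3.58.1 in R 4.3.3 (genotype, all 8 libraries, trended and robust eBayes) in the 11276 genes that reached 1 RPKM in 4 or more libraries, with Benjamini-Hochberg adjustment over all of them, and checked on simulated data. Exact permutation tests used all 70 assignments. Levels are means ± SD, differences KO minus WT ± SE. Alternatives were another pseudocount, no filter, quantile normalization, lane, a replicate block, library weights, leaving out libraries, and, chosen after seeing the data, 0 as missing. The members and the other lists were chosen with earlier results of these data known. Genes named beyond the members are the 3 most abundant of each list, the 3 most correlated with Socs2, Socs3 and Cish, and those said to be named later. A further list of target genes is not reported here. At most 6.86% of genes shared a value between libraries.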

Additional observations from a re-analysis of the deposited data

Results flagged for a closer look

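Among the 20 sets of 4 values checked (10 genes in KO and in WT), 1 held a library apart from the other 3. Jak1 in WT4 was the lowest of its group, at 50.4 RPKM against 55.8 to 56.7 RPKM in WT1, WT2 and WT3, and its gap to the nearest value was 0.858 of the group's range. About 5% of such sets are picked out by chance, which is 1 in 20. WT4 was still above every KO library.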

How the results depend on the processing

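Over 17 alternative settings, 156 of 170 differences of single members kept their direction and stayed past no threshold, 13 changed sign and 1 passed. With all libraries at equal weight limma called 0 genes (847 at an unadjusted p under 0.05); it called 2 in lane 4 alone, 3 without WT2, KO3 and KO4, and 0 to 2 when each library was left out in turn. Library weights called 164 genes, among them 1 member: Socs2 at -1.52 (adjusted p = 0.0455). Those weights were 6.503 for KO2 and 0.137 to 1.502 for the other KO libraries; over the other settings the adjusted p of Socs2 was not under 0.05. Leaving out each library called 0 members. Stat3 turned to 0.24 with lane as a covariate and in lane 4 alone, to 0.20 without WT2, KO3 and KO4, and to 0.0766 with library weights. Cish turned to 0.0829 with lane as a covariate, in lane 4 alone and with values listed at 0 treated as missing, a setting chosen after seeing the data; in each, KO1 and KO2 alone set the KO level. Stat5a was at 0.00533 with library weights and between -0.217 and 0.0201 when each library was left out. Socs3 was at -0.45 with library weights and between -0.41 and 0.55 when each was left out; the cause was not tested. Leaving out each library moved Jak1 between -0.94 and -0.36 and Socs2 between -2.41 and -1.05. With a pseudocount of 0.1 Socs2 was at -2.67 and Cish at -2.87. The replicate numbers did not pair the libraries (correlations of deviations from -0.080 to -0.038), and the replicate block called 0 genes and 0 members. Socs1 was at 0.0181 to 4.39 RPKM in KO and at most 1.36 RPKM in WT, and how far depth limits it was not tested.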
